A study of Mus musculus with 6 samples.

Results

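The genes described here are known from the light-sensing cells of the retina, and were measured in whole embryonic mouse kidneys. They are Rpgrip1, Cdhr1 and Myo7a, chosen by their rise in beta-catenin knockout kidneys in the same arrays, and 4 partners, Rpgrip1l, Rpgr, Crx and Prph2, added to ask whether a wider programme moved with them. All probe sets annotated with exactly 1 of these symbols were taken, which gave 10 of the 45101 probe sets on the array. They cover 6 of the 7 genes, out of 18193 genes with such a probe set, and Rpgrip1l is not analysed here. The rise of the 3 chosen genes is therefore given as a description: no p is given for them, and whether they passed the array-wide threshold is stated only as a count from which nothing is read, while the array-wide test is given for their partners and for the cilium and retina genes around them.

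There were 6 arrays of kidneys at embryonic day 12.5, 3 from mice labelled normal, whose genotype the labels give no further, and 3 from beta-catenin conditional knockouts. The knockouts carry a beta-catenin (Ctnnb1) allele with loxP sites around exons 2 to 6 together with Hoxb7-Cre:Gfp, a transgene that expresses the recombinase in the ureteric bud, the epithelium that branches into the collecting ducts. Other kidney cells are not targeted, and in whole kidneys a change in the number of cells of a type and a change in RNA per cell cannot be told apart. Kidneys had been allotted at random to 3 vials, the number of animals per vial is not given, and p-values measure only the spread between these samples. The titles were taken as the groups, although the description field of the knockout samples calls them normal. The 3 Ctnnb1 probe sets differed between knockout and normal by 0.09, 0.16 and 0.12 on the log2 scale (limma adjusted p from 0.601 to 0.695), and where they lie relative to the floxed exons is not analysed here. All 11 measured kidney markers of the 12 listed, among them Six2, Foxd1 and Wt1, were above the filter on dim probe sets, with summed signals of 6626 to 7325 on normal and 6335 to 7170 on knockout arrays. Of the 11, 3 were higher and 8 lower in knockout kidneys, with a median log2 difference of -0.16. By limma 0 of them passed the array-wide threshold, and 1 had an unadjusted p under 0.05, as did 11.7% of all genes tested.

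A photoreceptor is built around a modified cilium. Its connecting cilium, the counterpart of the transition zone of other cilia, links the cell body to the outer segment, where stacked membrane discs hold the visual pigment. Rpgrip1 anchors Rpgr, a regulator of small GTPase traffic, at this connecting cilium, and Rpgrip1l is the paralogue that serves the transition zone of primary cilia in many tissues, kidney included. Cdhr1 is a cadherin found at the base of the outer segment, and Prph2 is a tetraspanin of the disc rims. Crx is the homeodomain factor that switches on many photoreceptor genes. Myo7a is an unconventional myosin of hair cell stereocilia, the retinal pigment epithelium and the photoreceptor cilium.

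The promoter windows of the 3 chosen genes are shown because these genes were higher together in the knockout arrays, and because Crx, itself among the genes described, binds a known core motif. The sequences are RefSeq windows on GRCm38.p6 of 300 bases, 250 before the start of transcription and 50 after, written 5′ to 3′ along the gene. Capitals mark matches on either strand to 4 motifs, namely TAATCC (the core of the Crx site), CAATTAG (a rod promoter element), TGCTGA (the Maf half-site that Nrl binds) and CTTTGAT (the core of the TCF/LEF site through which beta-catenin acts). Rpgrip1 lies on chromosome 14 (chr14:52110653-52110952, plus strand), Cdhr1 on the same chromosome (chr14:37098298-37098597, minus strand) and Myo7a on chromosome 7, where the table gives 2 starts (first chr7:98119444-98119743 and second chr7:98109199-98109498, minus strand).
Rpgrip1: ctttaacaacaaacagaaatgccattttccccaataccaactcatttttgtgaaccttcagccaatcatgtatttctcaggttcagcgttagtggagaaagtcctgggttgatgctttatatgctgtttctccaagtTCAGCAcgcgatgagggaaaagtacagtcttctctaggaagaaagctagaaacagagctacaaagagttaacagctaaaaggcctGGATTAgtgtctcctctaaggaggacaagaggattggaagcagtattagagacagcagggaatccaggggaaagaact
Cdhr1: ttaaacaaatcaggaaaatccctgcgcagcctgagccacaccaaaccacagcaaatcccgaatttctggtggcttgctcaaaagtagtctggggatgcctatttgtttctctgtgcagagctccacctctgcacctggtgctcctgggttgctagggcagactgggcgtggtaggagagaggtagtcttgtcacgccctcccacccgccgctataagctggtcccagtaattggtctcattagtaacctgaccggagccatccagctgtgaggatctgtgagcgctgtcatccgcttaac
Myo7a, first start: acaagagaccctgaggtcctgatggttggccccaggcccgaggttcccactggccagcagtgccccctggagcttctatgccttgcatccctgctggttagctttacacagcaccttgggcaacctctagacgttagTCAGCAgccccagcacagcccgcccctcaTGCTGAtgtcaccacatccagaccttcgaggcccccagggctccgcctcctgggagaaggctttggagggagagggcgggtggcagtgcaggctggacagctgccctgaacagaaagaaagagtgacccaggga
Myo7a, second start: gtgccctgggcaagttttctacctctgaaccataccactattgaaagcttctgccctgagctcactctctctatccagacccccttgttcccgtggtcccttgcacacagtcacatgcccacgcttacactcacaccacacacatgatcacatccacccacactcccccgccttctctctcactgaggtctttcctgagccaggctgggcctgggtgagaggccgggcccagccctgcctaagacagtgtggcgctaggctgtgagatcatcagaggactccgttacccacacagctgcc

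The Rpgrip1 window held 1 TAATCC, read on the opposite strand as GGATTA, and 1 TGCTGA. The Cdhr1 window held none of the 4 motifs, and neither did the window of the second Myo7a start, while that of the first held TGCTGA on each strand. TAATCC occurs in 7.06% and TGCTGA in 19.5% of the 32851 promoter windows of this length, so such matches are common. CAATTAG (1.98% of windows) was found in the Crx window only, among the 9 windows of the 7 genes, beside 2 matches to the Crx core itself. None of the 9 windows held CTTTGAT, which 3.73% of all windows hold. No motif searched was present in the windows of all 3 chosen genes. A match is no evidence of binding, and the absence of letters from a window says nothing about a factor acting elsewhere.

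Rpgrip1 was the member with the largest difference. Its brightest probe set, 1421144_at, gave MAS5 signals, on a linear scale, of 270.1, 253.6 and 336.0 on the normal arrays and 2419.7, 2320.5 and 2304.0 on the knockout arrays, in the order of replicates 1 to 3 as in all that follows. The 3 knockout arrays lay close together, and the lowest of them was 6.86 times the highest normal array. The means were 287 ± 43.6 and 2348 ± 62.6 (SD, n = 3 per group), a ratio of 8.19 and a log2 difference, knockout minus normal, of 3.04 (SE 0.11). The probe set was above the filter level of 14.7 on all 6 arrays.

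The other 3 Rpgrip1 probe sets did not carry this difference. They read between 0.2 and 9.6 on all arrays, below the filter level, and their groups overlapped. Probe set 1454231_a_at read 9.6, 1.8 and 7.2 on normal and 3.7, 0.6 and 6.9 on knockout arrays. Probe set 1431357_a_at read 1.5, 0.9 and 1.7 against 1.3, 3.1 and 4.1, and 1451785_at read 0.2, 0.7 and 0.3 against 3.2, 0.6 and 1.0. At such signals no order or fold can be read, so the rise of Rpgrip1 rests on 1 of its 4 probe sets. Which exons each probe set covers is not analysed here.

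Cdhr1 was measured by a single probe set, 1418304_at. Signals were 20.7, 23.9 and 29.5 on normal and 74.9, 91.9 and 97.0 on knockout arrays. The normal arrays lay near the filter level and every knockout array was at least 2.54 times the highest of them. The means were 24.7 ± 4.45 and 87.9 ± 11.6 (SD, n = 3 per group), a ratio of 3.56 and a log2 difference of 1.84 (SE 0.23).

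Myo7a was likewise measured by a single probe set, 1421385_a_at. Signals were 41.2, 31.0 and 37.3 on normal and 124.5, 106.0 and 100.8 on knockout arrays. The groups were separate, with the lowest knockout array at 2.45 times the highest normal array. The means were 36.5 ± 5.15 and 110 ± 12.5 (SD, n = 3 per group), a ratio of 3.03 and a log2 difference of 1.60 (SE 0.19).

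The partner that binds Rpgrip1 did not pass the test. Rpgr (1427467_a_at) read 235.7, 263.0 and 275.4 on normal and 329.9, 329.5 and 311.0 on knockout arrays. All knockout arrays were above all normal arrays, by a small margin of 1.13 times between the nearest of them. The log2 difference was 0.33 (SE 0.10, 95% interval from 0.09 to 0.56), with a limma adjusted p of 0.306 over all 27022 probe sets kept.

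Crx was near the filter level and Prph2 below it. The brighter Crx probe set, 1449185_at, read 24.4, 20.3 and 10.3 on normal and 16, 15.4 and 9.8 on knockout arrays, above the filter level on 4 of 6 arrays. Its groups overlapped, and the log2 difference was -0.36 (SE 0.45, 95% interval from -1.37 to 0.65; limma adjusted p = 0.787). The dimmer Crx probe set, 1418705_at, stayed between 0.5 and 5.2, and the Prph2 probe set, 1420511_at, between 0.3 and 2.1. These last 2 probe sets stayed below the filter level on all arrays, so no order between the groups can be read for Prph2 or for the dimmer Crx probe set.

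Of the 10 probe sets, 5 passed the filter on dim probe sets. Among these 5, 3 passed the threshold of 0.05 on the adjusted p, those of Rpgrip1, Cdhr1 and Myo7a, against 0.581% of all probe sets tested in either direction and 0.381% in the upward direction. As these 3 were chosen for that rise, nothing is read from this count. In 4 of the 5 all knockout arrays lay above all normal arrays, as did 9.17% of all probe sets tested, and the fourth was Rpgr. Of the 2 partner probe sets tested, 0 passed, with 1 (Rpgr) at an unadjusted limma p under 0.05. By the brightest probe set of each gene, 11.7% of all genes tested had such a p, and nothing is read from a count of 1.

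**Figure D1:**
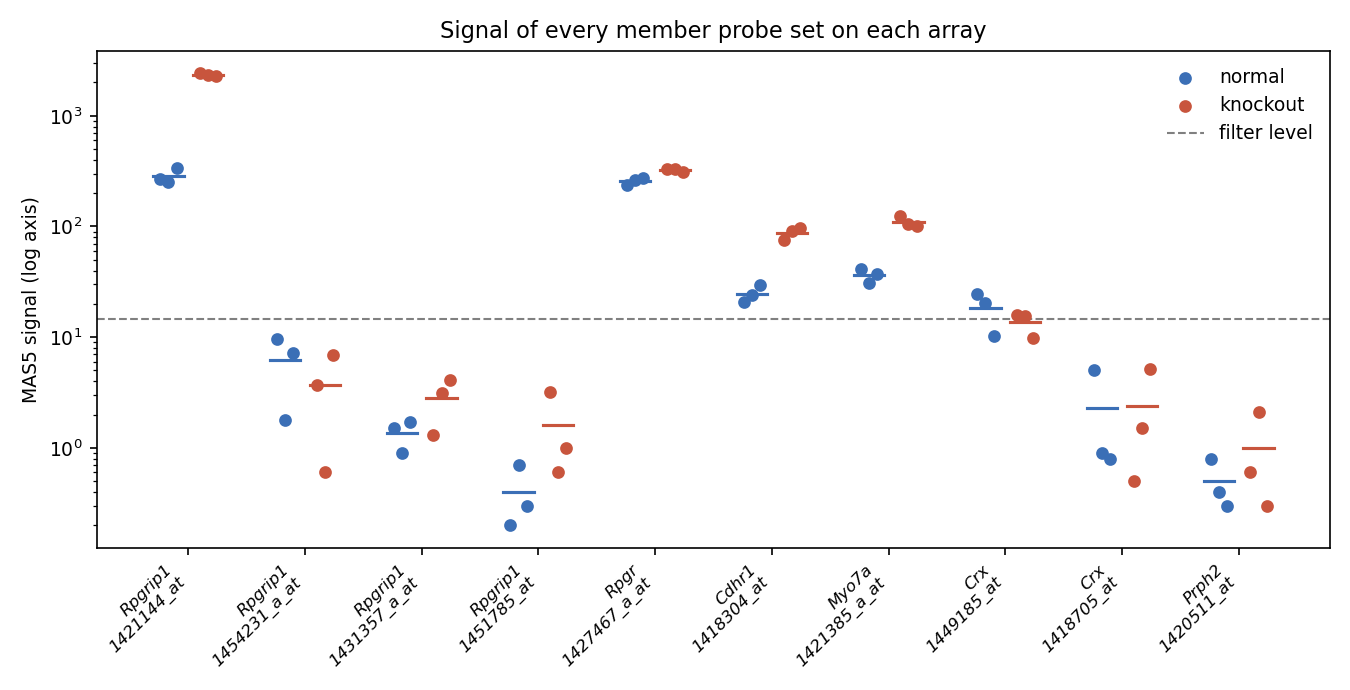
MAS5 signal (vertical, log axis) of the 10 probe sets on each array, with points for the 3 normal (blue) and 3 knockout (red) arrays, short bars for group means and a dashed line at the filter level of 14.7. The groups are far apart for 1 Rpgrip1 probe set (253.6 to 336.0 against 2304.0 to 2419.7), for Cdhr1 and for Myo7a, closer for Rpgr, and mixed near the floor for the other 6.

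With each array left out in turn, the log2 difference ran from 2.96 to 3.17 for Rpgrip1, from 1.72 to 1.97 for Cdhr1 and from 1.49 to 1.69 for Myo7a. These genes were chosen for their rise on the same arrays, so the ranges only describe the values. Adding 16 to every signal before log2, which damps low signals, left 2.98 for Rpgrip1, 1.35 for Cdhr1 and 1.27 for Myo7a. For Rpgr the difference stayed between 0.26 and 0.38 over all 14 alternatives, with limma adjusted p from 0.26 to 0.749.

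**Figure D2:**
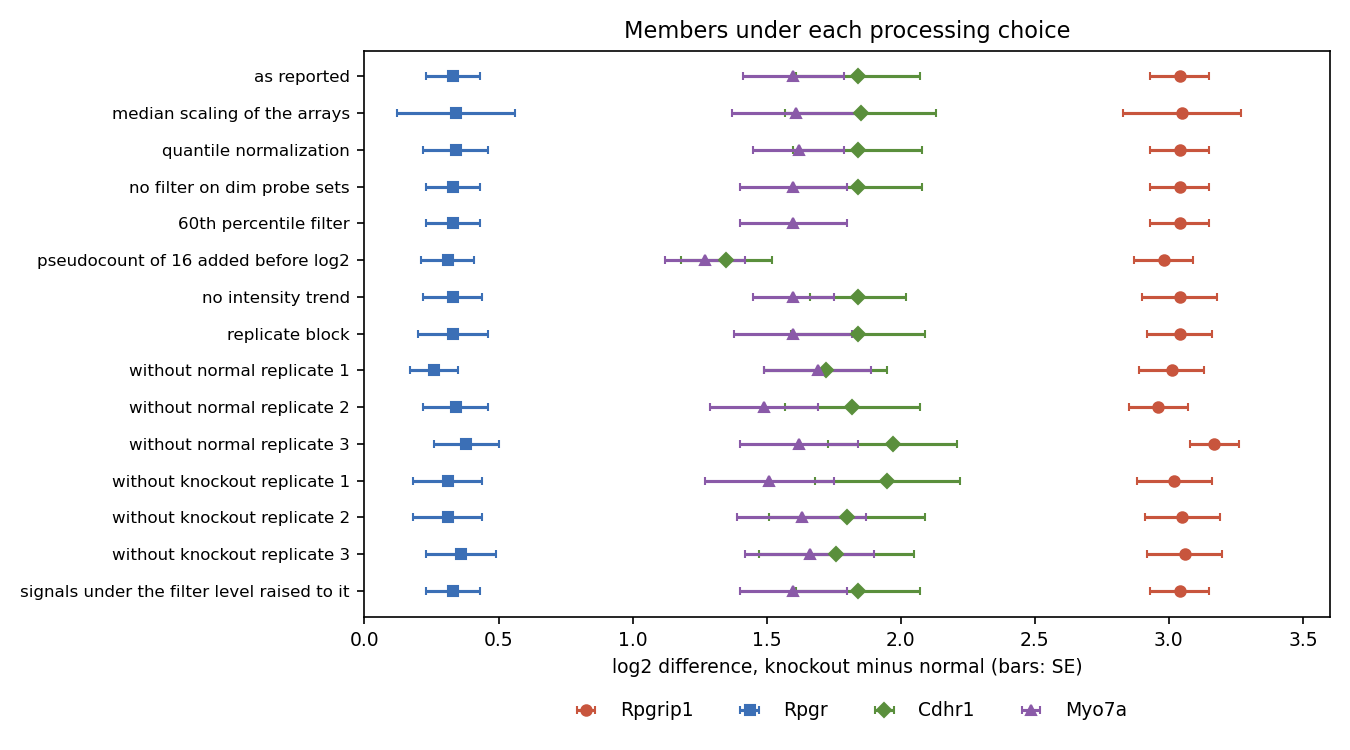
Log2 difference, knockout minus normal (horizontal, bars are SE), of the bright Rpgrip1 probe set, Rpgr, Cdhr1 and Myo7a under the settings of the fit (vertical), with the values as reported at the top. Rpgrip1 lies between 2.96 and 3.17 throughout, while a pseudocount of 16 lowers Cdhr1 to 1.35 and Myo7a to 1.27, and Cdhr1 has no point under the 60th percentile filter, which removes it.

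To ask whether a wider programme differed, 6 lists of genes that work beside the members were counted. In these lists 1 of 82 distinct genes above the filter passed by limma with Benjamini-Hochberg adjustment over the brightest probe set of each of 12464 genes, or 1.22%, against 0.658% of all genes tested. An unadjusted limma p below 0.05 was found for 11 of the 82 (13.4%) and for 11.7% of all genes tested. The median log2 difference of the 82 genes was 0.03. A share this near the background is no result about the lists.

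Genes of phototransduction and the outer segment were mostly dim. Of 38 listed, 33 were measured and 8 passed the filter, of which 0 passed the test and 1 (Pde6h) had an unadjusted limma p under 0.05. Signals of the 25 dim genes did not exceed 26.4 on any array. Rcvrn, a calcium sensor of rods, read 0.5, 2.3 and 0.5 on normal and 1.5, 1.0 and 0.8 on knockout arrays, and Gnat1, the rod transducin subunit, averaged 3.63 in normal and 5.0 in knockout kidneys. The brightest genes of the list have wider roles. Prom1, a membrane protein of outer segment discs and of many epithelia, stood at 778 ± 124 in normal and 732 ± 51.0 in knockout kidneys (SD, n = 3 per group), or -0.08 in log2 units (SE 0.12), and Unc119, a carrier of lipid-modified proteins into cilia, differed by -0.06 (SE 0.10). Rom1, the partner of Prph2 in the disc rim, differed by 0.50 (SE 0.31; limma adjusted p = 0.553), and Pde6h, an inhibitory subunit of cone phosphodiesterase, by -0.77 (SE 0.33; limma adjusted p = 0.423). The median difference over the 8 genes was -0.05.

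Photoreceptor transcription factors gave the same picture, with 4 of 11 measured genes above the filter and 0 past the test (limma), 1 at an unadjusted p under 0.05. Otx2, which acts upstream of Crx, read at most 1.9 on any array, and Nrl, the rod fate factor, averaged 6.43 in normal and 8.43 in knockout kidneys. The gene with the smallest p was Mef2d, a MADS-box factor active in many tissues, at -0.33 (SE 0.13; limma adjusted p = 0.391), followed by the nuclear receptor Rxrg at 0.29 (SE 0.52; limma adjusted p = 0.853). Retinal progenitor markers summed to between 51.8 and 56.3 in normal and between 45.5 and 65.1 in knockout arrays, with 5 of 6 measured genes under the filter and none at 0 on every array. The marker above it, the homeobox factor Six3, read 16.6, 14.5 and 18.5 on normal and 21.0, 31.3 and 23.7 on knockout arrays. Its knockout arrays were all above its normal arrays, and its log2 difference of 0.60 (SE 0.32; limma adjusted p = 0.501) did not pass the test. Genes of the retinal pigment epithelium and melanocytes had 7 of 9 under the filter, and their sum ran from 89.3 to 118 in normal and from 105 to 137 in knockout arrays. The 2 above it did not pass, Mitf at 0.17 (SE 0.23; limma adjusted p = 0.809) and Pmel at 0.64 (SE 0.37; limma adjusted p = 0.529). The dim genes Tyr and Rlbp1 read higher on all knockout than on all normal arrays, at signals too low to read an order. The groups of the other dim genes overlapped. Hair cell markers, of interest for Myo7a, had all 5 measured genes under the filter, with sums of 29.2 to 52.2 in normal and 35.6 to 39.8 in knockout arrays.

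The transition zone, where Rpgr and the Rpgrip1 family sit, was well measured. All 28 measured genes of the transition zone and nephronophthisis list (32 listed), a group whose loss causes cystic kidneys and retinal disease, passed the filter. Of these, 0 passed the test (limma), 3 had an unadjusted p under 0.05, and 12 were higher and 16 lower, with a median log2 difference of -0.02. Nphp4, which binds Rpgrip1, stood at 82.4 ± 20.3 in normal and 66.5 ± 10.8 in knockout kidneys (SD, n = 3 per group), or -0.29 in log2 units (SE 0.23; limma adjusted p = 0.639). Cep290, a scaffold of the transition zone, differed by -0.38 (SE 0.20; limma adjusted p = 0.484). The smallest p values were those of B9d1, a membrane gate component, at -0.41 (SE 0.13; limma adjusted p = 0.284) and Ofd1, a distal centriole protein, at 0.38 (SE 0.15; limma adjusted p = 0.378). Nphp4 and Cep290 were chosen as known partners after their values were seen.

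Intraflagellar transport genes, the motors and cargo carriers of cilia, held the 1 call. All 28 listed genes passed the filter, 1 passed the test and 4 had an unadjusted p under 0.05, with 18 higher, 10 lower and a median of 0.06. Ift27, a small GTPase of the transport complex, rose from 282.5, 306.4 and 315.0 on normal to 478.5, 477.8 and 546.9 on knockout arrays, with no overlap. Its log2 difference was 0.73 (SE 0.10; limma adjusted p = 0.0204 over genes). The other Ift27 probe sets, 1424648_at and 1435736_x_at, differed by 0.64 and 0.23 and did not pass (limma adjusted p = 0.24 and 0.609 over probe sets). The call was lost without normal replicate 2 (adjusted p = 0.0508, limma) and without knockout replicate 1, 2 or 3 (0.0932, 0.091 and 0.105), while the difference lay between 0.67 and 0.77. Kif3a, a subunit of the kinesin that drives transport outward, differed by 0.46 (SE 0.11; limma adjusted p = 0.138).

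The partners of Myo7a were counted in its sensory and its epithelial setting. In the Usher and stereocilia list, 9 of 13 measured genes passed the filter, 0 passed the test and 0 had an unadjusted limma p under 0.05. Cdh23 and Pcdh15, the cadherins of the tip link, were among the dim genes, at means of 10.5 and 7.27 in normal and 6.70 and 7.63 in knockout kidneys. Clrn1, also dim, read 2.6, 6.5 and 0.9 on normal and 28.6, 18.3 and 9.9 on knockout arrays. Its knockout arrays all lay above its normal arrays, but only 2 arrays were above the filter level and it was not tested. The remaining dim gene, Myo3a, averaged 3.37 in normal and 1.37 in knockout kidneys. Ush1c, the scaffold that binds Myo7a, differed by 0.58 (SE 0.44; limma adjusted p = 0.627) and the motor Myo15 by 0.32 (SE 0.35; limma adjusted p = 0.759). In the list of the brush border and its microvillar adhesion complex, 6 of 11 measured genes passed the filter and 0 the test (limma). An unadjusted limma p below 0.05 was found for 2 of them. These were the scaffold Slc9a3r1 at 0.43 (SE 0.14; limma adjusted p = 0.306) and the membrane-actin linker Ezr at -0.27 (SE 0.10; limma adjusted p = 0.362). Relatives of Myo7a and Cdhr1 in that complex are the motor Myo7b and the cadherins Cdhr2 and Cdhr5. Cdhr5 read 24.8, 7.5 and 17.8 on normal and 16.9, 15.8 and 23.7 on knockout arrays, with overlapping groups, and differed by 0.31 (SE 0.49; limma adjusted p = 0.831). Myo7b and Cdhr2 were under the filter, at means of 15.8 and 1.10 in normal and 4.93 and 0.933 in knockout kidneys.

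**Figure D3:**
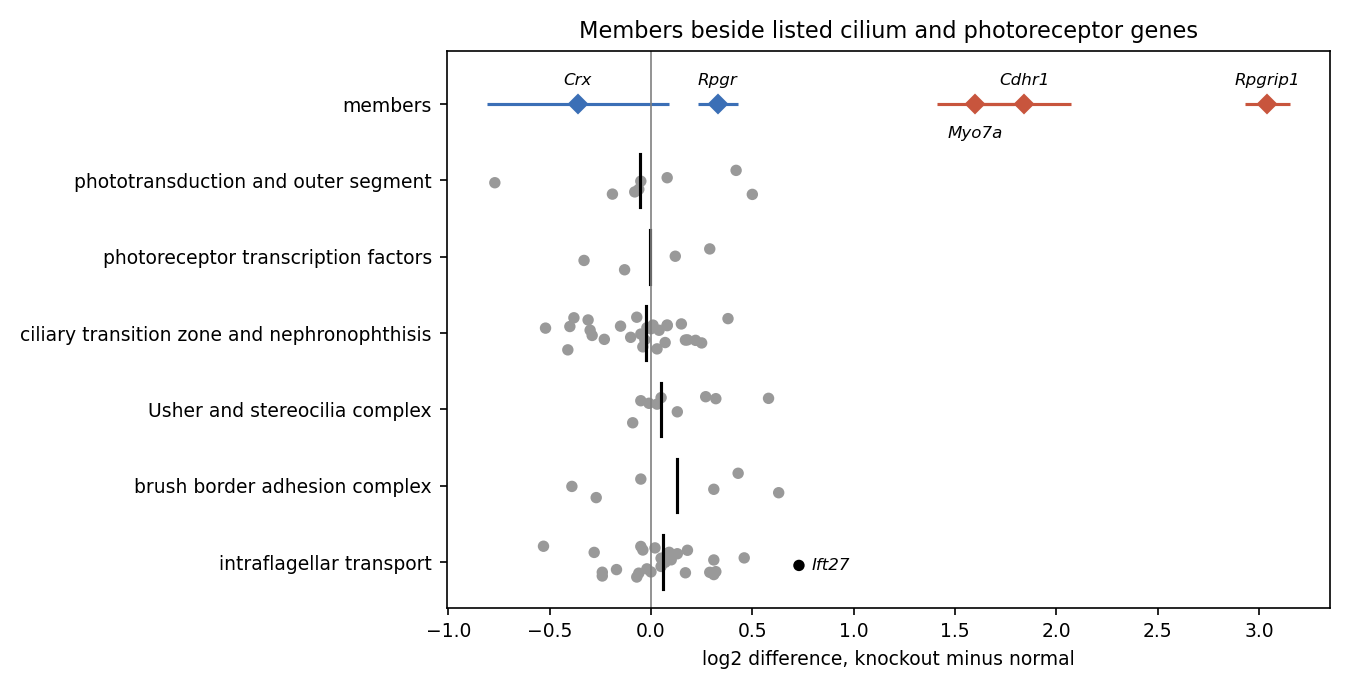
Log2 difference, knockout minus normal (horizontal), of the 5 tested member probe sets (diamonds with SE, the chosen genes in red and partners in blue) and of the genes above the filter in 6 lists (points, black where past the threshold; vertical bars are medians). List medians lie between -0.05 and 0.13, Ift27 at 0.73 is the single black point, and the chosen genes stand at 1.60 to 3.04.

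The 3 chosen genes were also set against their neighbours on the chromosome, in the order of the reference gene table. Neighbours were taken only from genes above the filter, so dim or unmeasured genes were passed over and may lie nearer. Of the nearest 5 such genes on each side of each, 30 in all, 0 passed (limma, over genes). An unadjusted limma p under 0.05 was found for 6 of the 30, and for 11.7% of all genes tested. The differences of the 30 ran from -0.35 to 0.52. Nearest to Rpgrip1 among these were Hnrnpc, an RNA-binding protein, at -0.02 (SE 0.08), and Supt16, a histone chaperone, at -0.35 (SE 0.09; limma adjusted p = 0.191). The gene models of Supt16 and Rpgrip1 overlap in that table, and Supt16 read 1453.0, 1773.5 and 1546.4 on normal and 1287.2, 1224.1 and 1224.0 on knockout arrays. The knockout arrays were thus the lower ones for Supt16 and the higher ones for Rpgrip1. For Cdhr1 the nearest of them were Ccser2 at 0.03 (SE 0.14) and Ghitm, a mitochondrial inner membrane protein, at 0.08 (SE 0.10). For Myo7a they were the water channel Aqp11 at -0.03 (SE 0.32) and the protease Capn5 at -0.23 (SE 0.27). Rpgrip1 and Cdhr1 share a chromosome, and of the 48 genes tested between them 1 passed, or 2.08%, against 0.658% of all genes tested. That gene, ccdc198, rose from 48.6 ± 5.65 to 131 ± 11.3 (SD, n = 3 per group), or by 1.43 in log2 units (SE 0.17; limma adjusted p = 0.0135), and this interval was chosen after the values were seen.

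**Figure D4:**
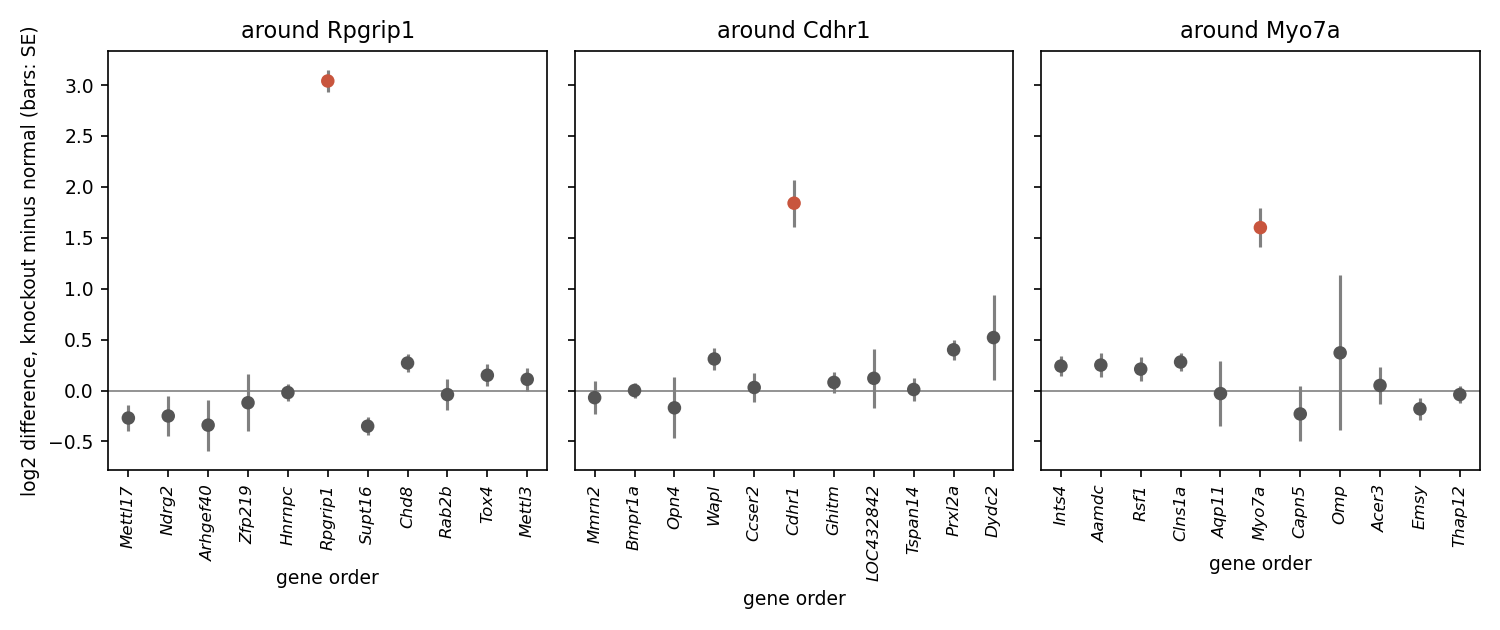
Log2 difference, knockout minus normal (vertical, bars are SE), of Rpgrip1, Cdhr1 and Myo7a (red) and their neighbours (grey), in gene order along the chromosome. Neighbours are the nearest 5 genes above the filter on each side of each. The neighbours lie between -0.35 and 0.52, against 3.04, 1.84 and 1.60 for the genes in the centre.

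The genes whose log2 signal over the 6 arrays was most like that of Rpgrip1, by Pearson's r, were Tmem14c (0.9975), Atf7ip (0.9962), Stk25 (0.9944), Shisa4 (0.9941) and Fbxo32 (0.9903). Those most like Cdhr1 were Tyw3 (0.9966), Mocs2 (0.9966), Mindy1 (0.9938), Ggh (0.9922) and Snx6 (0.9901). For Myo7a they were Gm6958 (0.9965), Zfp386 (0.9957), Micu3 (0.9951), Shisa4 (0.9935) and Eola1 (0.9934). None is a gene of the lists above. Tmem14c, a mitochondrial membrane protein needed for haem synthesis, averaged 97.4 on normal and 607 on knockout arrays. Shisa4 stood near both Rpgrip1 and Myo7a and averaged 86.0 on normal and 237 on knockout arrays, which is 1.47 in log2 units (SE 0.14). Likeness said little about size, since Tyw3, a tRNA modification enzyme, averaged 64.8 and 80.9. Among the members, r was 0.985 between Rpgrip1 and Cdhr1, 0.985 between Rpgrip1 and Myo7a and 0.944 between Cdhr1 and Myo7a. Such values mainly record the step between 3 low and 3 high arrays, for which these genes were chosen, and 111 of 12463 genes had an r over 0.95 with Rpgrip1.

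Markers of other cell types were counted beside the 3 genes. Macrophage markers, all 6 above the filter, summed to between 340 and 750 in normal and between 758 and 1037 in knockout arrays, and pericyte markers, also 6, to between 1835 and 2501 in normal and between 2607 and 2874 in knockout arrays. The pericyte separation rests on Rgs5, since the other 5 markers, a sum added after the values were seen, came to between 1526 and 2052 in normal and between 1346 and 1644 in knockout arrays. In this list 2 genes rose (limma), Rgs5 by 1.78 (SE 0.18) and Abcc9 by 1.87 (SE 0.24), with limma adjusted p of 0.00587 and 0.0162, while Kcnj8 stood at 0.74 (SE 0.34; limma adjusted p = 0.437), Pdgfrb at -0.33 (SE 0.11; limma adjusted p = 0.299), Cspg4 at -0.43 (SE 0.21; limma adjusted p = 0.457) and Notch3 at -0.33 (SE 0.19; limma adjusted p = 0.524). Skeletal muscle markers, 6 of 6 above the filter, summed to between 319 and 392 in normal and between 407 and 4909 in knockout arrays, the highest being knockout replicate 2. Without that array the log2 differences were 3.05 for Rpgrip1, 1.80 for Cdhr1 and 1.63 for Myo7a. The sums of the groups overlapped for erythroid markers (3260 to 7878 in normal, 5175 to 12044 in knockout), a sum made up mostly of the globins Hba-x and Hbb-bh1. They also overlapped for neuronal markers (211 to 574, 261 to 462), multiciliated cell markers (102 to 128, 75.2 to 110) and germ cell markers (53.7 to 447, 47.4 to 75.6). Normal replicate 1 gave the highest neuronal and germ cell sums. On the normal arrays the germ cell marker Dazl read 188.5, 7.4 and 7.1. In these lists other than the pericyte list 0 genes passed the test (limma, over genes), and 0 markers were at 0 on every array. An unadjusted limma p below 0.05 was found for 2 of 6 macrophage, 2 of 6 muscle and 2 of 4 erythroid markers tested, and for 11.7% of all genes tested. All tested markers of these 3 lists were higher in knockout kidneys, with median log2 differences of 0.71, 1.72 and 0.99. The part of these cell types in the rise of Rpgrip1, Cdhr1 and Myo7a was not tested.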

How the data were processed

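Whole kidneys were measured on 6 single-colour Affymetrix arrays, 3 per group, after amplification from 1 µg of total RNA. The authors deposited a linear signal intensity for each probe set, calculated by MAS5 per the submitters' processing notes. Neither its version nor detection calls were given in the sources used here. MAS5 takes mismatch probes into account, which makes dim signals noisy. Array medians spanned 0.37 in log2 units, less than the limit of 0.5, and no scaling was added. Controls (64 probe sets) were left out, 15 values of 0 were set to 1.7, and the 27022 probe sets with a mean log2 signal over the 40th percentile (a signal of 14.7) were kept.

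Groups were compared by limma 3.58.1 under R 4.3.3, using lmFit and eBayes with its trend option. P-values were adjusted by Benjamini-Hochberg, over the kept probe sets for the members and over the brightest kept probe set of each of 12464 genes for lists and neighbours, at a threshold of 0.05. The fit was tested on simulated data. Symbols came from the platform annotation, updated through gene identifiers (34945 probe sets with 1 symbol, 932 with several, 9160 with none here). Promoters and gene order are from RefSeq, GRCm38.p6. Listed genes without a probe set are not analysed here, and neither are the planned protein comparisons. The members and lists were chosen with earlier results of these data known. Genes were named by rule: all members, of each list those past the threshold or the 2 with the smallest p, the nearest neighbours, and the 5 genes most like each chosen gene. Partners, bright and dim genes named beyond this were chosen after their values were seen. Alternatives covered scaling, the filter, the floor, the variance model, the replicate number as a block and each array left out. The number of arrays limits the precision.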

Additional observations from a re-analysis of the deposited data

How the results depend on the processing

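The directions of all 5 tested member probe sets held under every alternative that kept them, and the differences of Cdhr1 and Myo7a were smallest with a pseudocount of 16. The number of probe sets past the threshold, 157, was 434 with median scaling of the arrays, where limma estimated 41.8 prior degrees of freedom against 4.95, and 41 with no intensity trend. It ran from 47 to 149 with 1 array left out, at 95 without normal replicate 3 and at 55, 59 and 47 without knockout replicates 1, 2 and 3. The number of member probe sets past it, 3, ran from 1 to 3 with 1 array left out, at 2 without knockout replicate 1 and 1 without knockout replicate 2 or 3; these are genes chosen for their rise on the same arrays, so this count says nothing about how steady it is. The 1 list gene past it, Ift27, ran from 0 to 1 with 1 array left out and was 0 with median scaling, with no intensity trend, with the replicate block and with the mean of all kept probe sets of a gene. Over these alternatives its limma adjusted p ran from 0.0153 to 0.152 and its log2 difference from 0.53 to 0.77. Raising signals under the filter level to it, an alternative chosen after seeing the data, changed no member's call. The filter at the 60th percentile removed Cdhr1 and Crx. Crx was also not among the tested probe sets without normal replicate 1 or 2, so its direction rests on 11 alternatives. The labels do not say whether replicate numbers pair the arrays. Deviations from the group means correlated at 0.083, -0.108 and -0.201 between same-numbered arrays, which with 3 arrays per group cannot decide it. With the replicate block 3 member probe sets and 109 of all probe sets passed. In that fit the call of Ift27 was lost (limma adjusted p = 0.0621). With the block, no other call changed among the genes named here from the members and pathway lists. The signal over background limits what can be said of Crx, Prph2 and the 3 dim Rpgrip1 probe sets. No cause of these changes was tested.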
